A study of Mus musculus with 8 samples.

Results

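The genes described here are 9 genes of pyrimidine synthesis and nucleotide phosphate transfer, namely Cad, Dhodh, Umps, Uck2, Dtymk, Dctpp1, Nme1, Nme2 and Ak4. They were taken as every probe set (a group of short oligonucleotides on the array that reads 1 transcript) whose only gene symbol in the platform annotation is 1 of these names. This gave 27 probe sets for 9 genes, out of 18194 genes with a probe set of their own. RNA came from germinal centre (GC) B cells, which are B cells that divide and select their antibodies in follicles of the spleen. The MYC-positive group (n = 4) and the MYC-negative group (n = 4) were parted by the level of green fluorescent protein (GFP). Both groups came from 8-week-old knock-in mice of the GFPMYC/C57BL6 strain, in which GFP is fused to MYC, taken 12 days after immunization with sheep red blood cells. GFP therefore reports MYC protein in both groups alike, and both were gated as GC B cells by strong peanut agglutinin binding and high CD95 after magnetic B cell enrichment. The sample descriptions name 4 pairs of a MYC-positive and a MYC-negative sample. The protocol speaks of mice and the design text of pools, so whether a pair is 1 animal is not settled, and the p-values measure the spread between these pairs.

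Pyrimidine nucleotides are made either from small precursors or by salvage of free nucleosides. In the de novo route CAD joins bicarbonate, glutamine and aspartate into dihydroorotate, DHODH in the inner mitochondrial membrane oxidises it to orotate, and UMPS turns orotate into UMP, the parent of all other pyrimidine nucleotides. In salvage UCK2 phosphorylates uridine and cytidine. Kinases then add the further phosphates: DTYMK converts dTMP to dTDP, and the nucleoside diphosphate kinases NME1 and NME2 make triphosphates. DCTPP1 hydrolyses dCTP and modified forms of it, and AK4 is an adenylate kinase of the mitochondrial matrix. In activated lymphocytes these pools feed both RNA synthesis and DNA replication, and several of these genes are known as targets of MYC.

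Of the 9 genes, 8 were higher in MYC-positive cells by their brightest probe set, and no probe set of any of them was called lower. Of all 11754 genes, tested in the same way, 21.8% were called in either direction and 11.0% were called higher. Of the 27 probe sets, 23 passed the filter on dim signal and were tested, and all 23 also had a MYC-negative geometric mean above the filter level of 18.7. Among the 23, 14 were called higher at a limma adjusted p under 0.05, where 9.03% of all 22024 probe sets tested were higher and 21.1% were called in either direction. The median log2 difference of the 23, MYC-positive minus MYC-negative, was 0.96, against -0.15 for all probe sets tested. At an unadjusted p under 0.05, 17 were higher and 0 lower. All 4 MYC-positive arrays lay above all 4 MYC-negative arrays for 14 of the 23, where 9.38% of all probe sets did so. Of the member probe sets 9 were called without pair 1 and 16 without pair 4. In bulk RNA of sorted cells, a larger share of cells carrying a transcript and more transcript per cell cannot be told apart.

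**Figure D1:**
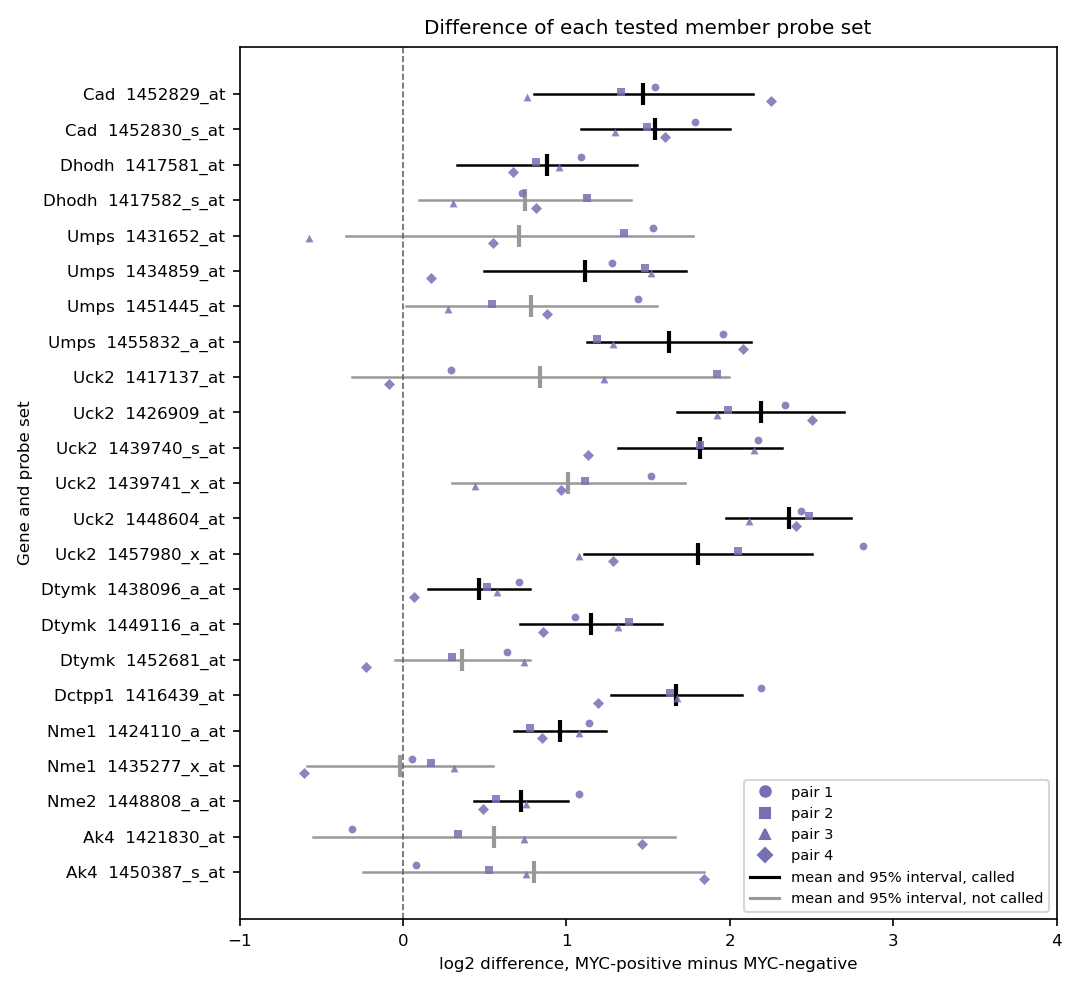
Log2 difference of each of the 23 tested probe sets of the 9 genes (x axis, MYC-positive minus MYC-negative), with 1 symbol for each of the 4 pairs, a vertical tick at the mean and a bar for its 95% confidence interval from limma, black where called. Uck2 lies farthest to the right at up to 2.36, the called probe sets of Cad, Umps and Dctpp1 lie between 1.11 and 1.67, and 1 probe set of Nme1 sits at -0.02.

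Arrays carried about equal trimmed mean signals, from 497 to 498, but the groups differed in other measures. The median signal was 28.2 to 39.7 on MYC-positive and 41.5 to 55.9 on MYC-negative arrays. The share of probe sets above a signal of 100 was 34.7% to 39.2% on MYC-positive and 38.3% to 42.7% on MYC-negative arrays. In every pair this share was lower on the MYC-positive array. Myc was higher in MYC-positive cells by 2.83 on the log2 scale (SE 0.27, n = 4 pairs, limma adjusted p = 0.00103), which checks the sort and is no finding. Several B cell genes were bright in both groups, with Ms4a1 (CD20) at 12840 and 14207 and Cd79b at 8996 and 11025 in the MYC-positive and MYC-negative groups (geometric mean signals). Pax5 was dim, at 44.2 and 148, and Mybl1 was at 508 and 2213 in the same order. Of 10 tested B cell and germinal centre genes, 4 were lower (Cd22, Pax5, Mybl1 and Fas) and 0 higher in MYC-positive samples. Myeloid markers moved with the groups. Of 12 markers, 11 were tested, 8 were higher and 1, Apoe, was lower in MYC-positive samples. Their summed signal ran from 1589 to 10517 on MYC-positive and from 642 to 1544 on MYC-negative arrays, and Itgam was near the floor in both groups, at 1.69 and 2.21. The sum was highest on the MYC-positive array of pair 1 and lowest among MYC-positive arrays in pair 3, at 1589 against 874 on its MYC-negative partner. In pair 3 the brightest probe sets of Cad, Dhodh, Umps, Uck2, Dtymk, Dctpp1, Nme1, Nme2 and Ak4 differed by 1.30, 0.95, 1.28, 2.12, 0.58, 1.68, 1.08, 0.75 and 0.75 in that order. For Cad and Uck2 these were the smallest of the 4 pairs, and Umps 1431652_at was lower in the MYC-positive array of pair 3, at -0.58. Of 9 genes of dividing cells, 1 (Mcm2) was higher and 0 were lower, with a median of 0.27. Of 4 plasma cell genes tested 1 (Sdc1) was higher. Of 6 T cell genes on the array 2 were tested, of which Thy1 was higher and Cd8a, at -0.52, was not called. The untested T cell genes were under the filter, with Cd3d, Cd3e and Cd3g lower on average in MYC-positive samples and Cd4 higher. The median difference of the 6 was -0.57. Both erythroid genes on the array were under the filter. The part of myeloid RNA in the differences given below was not tested beyond these values.

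The 3 genes of de novo UMP synthesis were all higher in MYC-positive cells, Cad and Umps by about 3-fold and Dhodh by 1.84-fold at their brightest probe sets. Cad encodes the enzyme that starts the route and sets its rate. Its brightest probe set, 1452830_s_at, had signals of 1402, 1457, 866 and 889 in MYC-positive pairs 1 to 4, against 407, 518, 352 and 293 in MYC-negative pairs 1 to 4. The groups did not overlap, and pairs 1 and 2 were the higher ones in both groups. The log2 difference was 1.54 (SE 0.20, limma adjusted p = 0.00236), or 2.92-fold, and it lay between 1.30 and 1.78 in each pair. Another Cad probe set, 1452829_at, gave 639, 746, 335 and 455 in MYC-positive arrays, against 219, 296, 198 and 95.5 in MYC-negative arrays. Its difference of 1.47 (SE 0.29, adjusted p = 0.0115) was close to that of the brighter one, with a difference between the 2 of 0.07 ± 0.51 (SD, n = 4 pairs, exact sign-flip p = 0.75). Its call ended without pair 1 (adjusted p = 0.0769) and without pair 2 (0.0554). The remaining Cad probe set, 1440857_at, was under the filter, with signals from 1.70 to 39.0 in MYC-positive and from 1.97 to 16.3 in MYC-negative arrays, and was not tested.

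Dhodh encodes the mitochondrial step, which passes electrons to ubiquinone of the respiratory chain. Its brighter probe set, 1417581_at, had signals of 448, 355, 434 and 362 in MYC-positive arrays, against 211, 202, 224 and 227 in MYC-negative arrays. The MYC-negative values lay within a narrow band and all below the lowest MYC-positive one. The difference was 0.88 (SE 0.24, adjusted p = 0.0337), between 0.67 and 1.09 in the pairs. The call rested on all pairs but the last: without pair 1, 2 or 3 the adjusted p was 0.151, 0.125 and 0.0984. The other probe set, 1417582_s_at, had 197, 320, 214 and 251 in MYC-positive arrays, against 119, 146, 173 and 142 in MYC-negative arrays. It was at 0.74 (SE 0.29, adjusted p = 0.0972) and did not pass, although the groups did not overlap. With quantile normalization it was at 1.10 and passed (adjusted p = 0.0179).

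Umps encodes a protein with both of the last activities of the route, and its 4 probe sets did not give the same size of difference. The brightest, 1455832_a_at, had signals of 2172, 1639, 1104 and 1834 in MYC-positive arrays, against 560, 719, 453 and 434 in MYC-negative arrays. No array of the groups overlapped, and the difference was 1.63 (SE 0.22, adjusted p = 0.00277), or 3.09-fold. The next, 1434859_at, had 739, 1080, 890 and 690 in MYC-positive arrays, against 305, 387, 311 and 612 in MYC-negative arrays. Its difference was 1.11 (SE 0.27, adjusted p = 0.0227), and pair 4 stood apart at 0.17, where the other pairs lay between 1.28 and 1.52, with 690 in its MYC-positive and 612 in its MYC-negative array. Leaving out pair 1, 2 or 3 ended this call (adjusted p = 0.119, 0.115 and 0.0783), as did fitting no intensity trend (0.0671), while leaving out pair 4 did not.

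The other 2 Umps probe sets were dimmer and did not pass. The 1451445_at signals were 168, 161, 132 and 147 in MYC-positive arrays, against 62.0, 110, 109 and 80.0 in MYC-negative arrays, with a difference of 0.78 (SE 0.34, adjusted p = 0.132) and no overlap of the groups. The 1431652_at signals were 80.5, 83.3, 38.5 and 72.8 in MYC-positive arrays, against 27.9, 32.7, 57.4 and 49.7 in MYC-negative arrays. Here the groups overlapped, pair 3 ran the other way at -0.58, and the mean difference was 0.71 (SE 0.47, adjusted p = 0.307). The brightest probe set exceeded 1451445_at by 0.84 ± 0.31 (SD, n = 4 pairs) and did so in 4 of 4 pairs. That gave an exact sign-flip p = 0.125, the smallest value that 4 pairs allow. The brightest probe set exceeded 1434859_at by 0.52 ± 1.03 (exact p = 0.5) and 1431652_at by 0.91 ± 0.94 (exact p = 0.25), both within the spread between pairs. With the mean over its probe sets Umps was at 1.06.

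**Figure D2:**
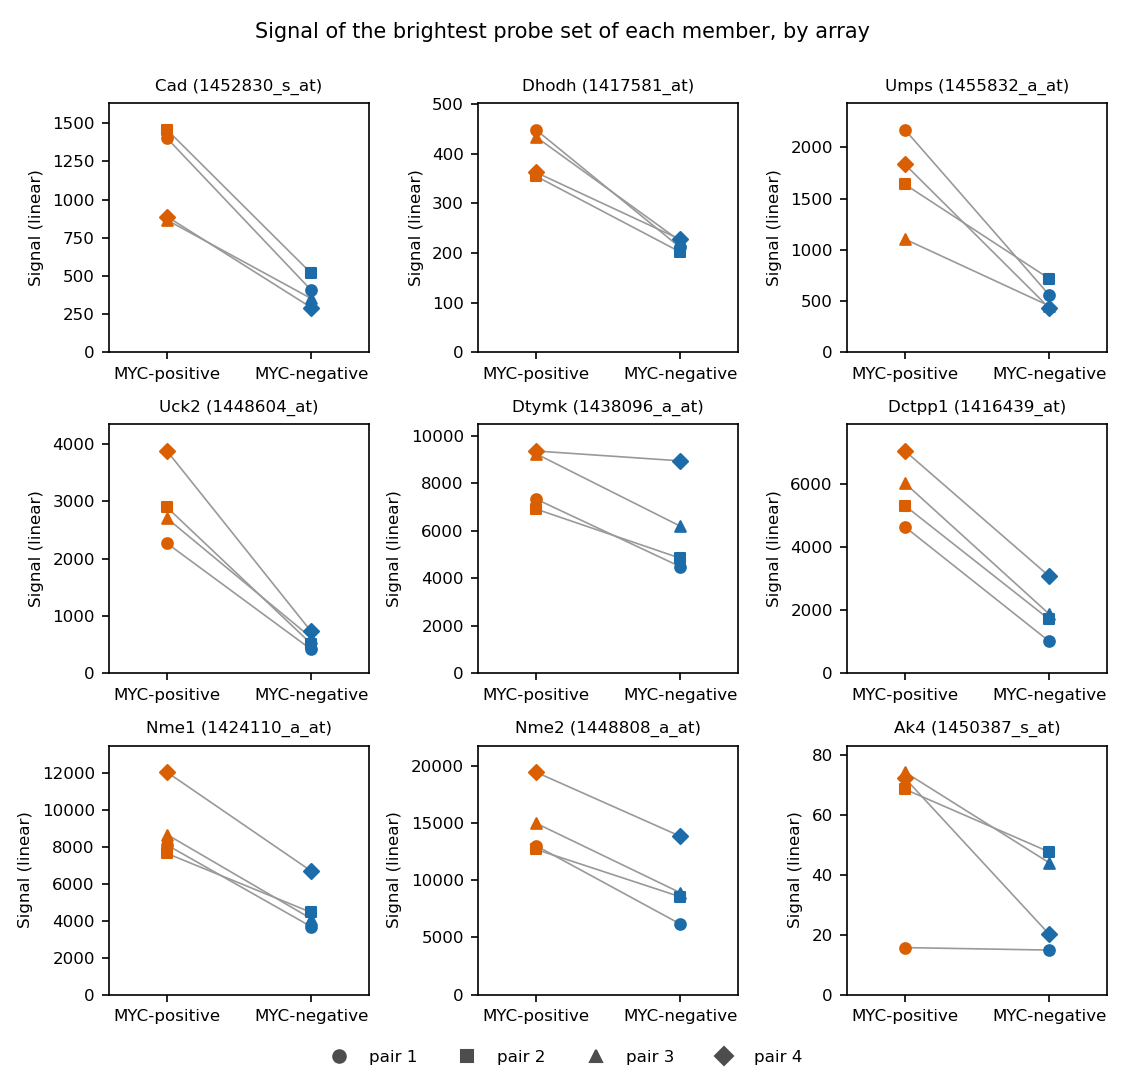
Linear array signal of the brightest tested probe set of each of the 9 genes, with the 4 MYC-positive arrays left of the 4 MYC-negative arrays, lines joining the stated pairs and a symbol for each pair. Groups part without overlap for Cad, Dhodh, Umps, Uck2, Dctpp1 and Nme1 and overlap for Dtymk, Nme2 and Ak4.

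Uck2, the salvage kinase for uridine and cytidine, had the largest difference of the 9 genes. Its brightest probe set, 1448604_at, had signals of 2264, 2890, 2700 and 3872 in MYC-positive arrays, against 418, 517, 623 and 730 in MYC-negative arrays. The lowest MYC-positive array was above the highest MYC-negative one by a wide margin, and the 4 pairs agreed within 2.12 to 2.48. The difference was 2.36 (SE 0.17, 95% interval 1.98 to 2.74, adjusted p = 0.000586), or 5.14-fold. Of its 6 tested probe sets, 4 were called higher. The others called were 1426909_at at 2.19 (SE 0.23), 1439740_s_at at 1.82 (SE 0.22) and 1457980_x_at at 1.81 (SE 0.31), with limma adjusted p between 0.00121 and 0.0062. The probe set 1439741_x_at, with signals of 172 to 309 in MYC-positive and 80.8 to 127 in MYC-negative arrays, was at 1.01 (SE 0.31) and just missed the threshold (adjusted p = 0.0512), and it passed under 5 alternatives, among them both other scalings. The dimmest, 1417137_at, was near the filter level in both groups and was at 0.84 (SE 0.51, adjusted p = 0.269). In platform names the suffix _x_at marks probes shared with other sequences, _s_at probes that match transcripts of several genes and _a_at several transcripts of 1 gene, so such values may hold more than 1 transcript.

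Dctpp1 encodes the pyrophosphatase that removes dCTP and its modified forms from the nucleotide pool. Its only probe set, 1416439_at, had signals of 4638, 5308, 6022 and 7042 in MYC-positive arrays, against 1018, 1712, 1881 and 3079 in MYC-negative arrays. In both groups the order of the pairs was the same, with pair 1 lowest and pair 4 highest. The difference was 1.67 (SE 0.18, adjusted p = 0.00133), or 3.19-fold, from 1.19 in pair 4 to 2.19 in pair 1. The call held under every alternative run.

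Dtymk, the thymidylate kinase gene that serves DNA synthesis, gave a smaller and less even difference. Its brightest probe set, 1438096_a_at, had signals of 7331, 6912, 9236 and 9352 in MYC-positive arrays, against 4490, 4845, 6194 and 8937 in MYC-negative arrays. The MYC-negative array of pair 4 lay within the MYC-positive range, so the groups overlapped, and pair 4 differed by 0.07 where the others differed by 0.51 to 0.71. The mean difference was 0.47 (SE 0.14, adjusted p = 0.044), a call that ended without pair 1, 2 or 3 (adjusted p = 0.222, 0.148 and 0.109), without the pair block (0.178), with quantile normalization (0.0641), with no filter (0.0724) and with no intensity trend (0.177). After median centring it was at 0.91. The probe set 1449116_a_at had 904, 1184, 1378 and 1783 in MYC-positive arrays, against 436, 454, 554 and 985 in MYC-negative arrays, and differed by 1.15 (SE 0.19, adjusted p = 0.00584). It exceeded the brightest in all 4 pairs, which differed from it by -0.69 ± 0.23 (SD, n = 4 pairs, exact sign-flip p = 0.125). The last, 1452681_at, had 3727, 3550, 4878 and 3677 in MYC-positive arrays, against 2400, 2888, 2914 and 4297 in MYC-negative arrays, and was at 0.36 (SE 0.18, adjusted p = 0.185). Without pair 4 it was at 0.56 and passed (adjusted p = 0.0121).

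Nme1 and Nme2 encode the main nucleoside diphosphate kinases of the cytosol, which use ATP to make the other triphosphates. They lie next to each other on chromosome 11, with 0 annotated genes between them in the GRCm38.p6 RefSeq table, and their coding sequences are closely alike, so their probes may read both transcripts in part. The Nme1 probe set 1424110_a_at had signals of 8106, 7648, 8669 and 12051 in MYC-positive arrays, against 3684, 4454, 4115 and 6696 in MYC-negative arrays. The array of pair 4 was the brightest of its group on both sides, and the groups did not overlap. The difference was 0.96 (SE 0.12, adjusted p = 0.00233), or 1.95-fold. The other Nme1 probe set, 1435277_x_at, had 213, 467, 487 and 424 in MYC-positive arrays, against 206, 414, 393 and 646 in MYC-negative arrays. It was at -0.02 (SE 0.25, 95% interval -0.59 to 0.55, adjusted p = 0.972) and turned to 0.42 after median centring without passing. The probe set 1424110_a_at exceeded it by 0.98 ± 0.38 (SD, n = 4 pairs), in 4 of 4 pairs (exact sign-flip p = 0.125). With the mean over both probe sets Nme1 was at 0.47 and did not pass (adjusted p = 0.058). The Nme2 probe set 1448808_a_at had 13027, 12701, 14995 and 19455 in MYC-positive arrays, against 6180, 8561, 8919 and 13853 in MYC-negative arrays. The MYC-negative array of pair 4 reached into the MYC-positive range. The difference was 0.72 (SE 0.13, adjusted p = 0.00692), between 0.49 and 1.08 in the pairs, and the call ended without pair 1 (0.0659), without the pair block (0.0616) and with no intensity trend (0.0732).

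Ak4 was the member with no call. Its product sits in the mitochondrial matrix, and all 5 of its probe sets were dim. The brightest, 1450387_s_at, had signals of 15.7, 68.7, 74.4 and 72.4 in MYC-positive arrays, against 14.9, 47.7, 44.1 and 20.2 in MYC-negative arrays. Both arrays of pair 1 were under the filter level of 18.7, the groups overlapped, and the difference was 0.80 (SE 0.46, 95% interval -0.24 to 1.84, adjusted p = 0.244). The probe set 1421830_at was at 0.56 (SE 0.49, adjusted p = 0.448). The remaining 3 were under the filter and not tested, with signals from 0.931 to 38.1 in MYC-positive and from 0.789 to 29.3 in MYC-negative arrays. Of these, 1421829_at had 21.3, 15.0, 38.1 and 27.7 in MYC-positive arrays, against 3.74, 3.11, 21.3 and 4.18 in MYC-negative arrays, and was higher in 4 of 4 pairs, with no test. The interval of 1450387_s_at includes both no change and a rise as large as that of Umps.

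The arrays of pair 4 did not stand the same way for all members. The MYC-negative array of pair 4 was the brightest of its group for all 3 Dtymk probe sets, Dctpp1, both Nme1 probe sets, Nme2, Dhodh 1417581_at, Umps 1434859_at and Uck2 1448604_at and 1439740_s_at. The same array was the dimmest of its group for both tested Cad probe sets, for the brightest Umps probe set and for Uck2 1426909_at.

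The start regions of these genes were searched for CACGTG, the E-box to which MYC binds together with MAX, because 8 of the 9 genes were called in the same direction. RefSeq windows from 250 bases before to 50 bases after the annotated start (GRCm38.p6) were used for the 8 members that matched by symbol (13 windows, none matched for Dhodh). The motif reads the same on both strands. It was in a window of 3 of the 8 genes, Dtymk, Nme1 and Ak4, where 8.09% of all genes with a window hold it. The windows of Dtymk and Nme1 are printed because they hold the motif and their genes were called, and those of Uck2 and Cad because they moved most or start the route and their windows do not hold it. Capitals mark the motif, and the gene strand is printed 5′ to 3′.
Dtymk, chr1:93801885-93802184, minus strand: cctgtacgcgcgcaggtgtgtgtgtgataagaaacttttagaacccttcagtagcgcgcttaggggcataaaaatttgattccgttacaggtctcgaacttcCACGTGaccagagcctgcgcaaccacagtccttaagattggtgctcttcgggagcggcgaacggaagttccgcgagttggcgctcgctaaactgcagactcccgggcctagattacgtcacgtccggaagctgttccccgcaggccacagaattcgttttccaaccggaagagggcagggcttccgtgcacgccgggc
Nme1, upstream start, chr11:93968223-93968522, minus strand: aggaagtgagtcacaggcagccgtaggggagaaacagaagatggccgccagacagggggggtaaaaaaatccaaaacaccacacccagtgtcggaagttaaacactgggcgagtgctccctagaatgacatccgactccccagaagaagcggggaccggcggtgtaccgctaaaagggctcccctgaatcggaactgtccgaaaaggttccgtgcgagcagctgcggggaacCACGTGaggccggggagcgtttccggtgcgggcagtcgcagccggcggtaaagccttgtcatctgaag
Nme1, downstream start, chr11:93967976-93968275, minus strand: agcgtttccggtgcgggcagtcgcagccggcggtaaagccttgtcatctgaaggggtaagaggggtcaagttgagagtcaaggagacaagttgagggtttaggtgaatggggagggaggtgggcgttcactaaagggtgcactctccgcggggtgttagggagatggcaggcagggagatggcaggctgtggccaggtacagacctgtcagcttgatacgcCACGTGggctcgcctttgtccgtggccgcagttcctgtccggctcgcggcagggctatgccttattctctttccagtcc
Uck2, chr1:167285078-167285377, minus strand: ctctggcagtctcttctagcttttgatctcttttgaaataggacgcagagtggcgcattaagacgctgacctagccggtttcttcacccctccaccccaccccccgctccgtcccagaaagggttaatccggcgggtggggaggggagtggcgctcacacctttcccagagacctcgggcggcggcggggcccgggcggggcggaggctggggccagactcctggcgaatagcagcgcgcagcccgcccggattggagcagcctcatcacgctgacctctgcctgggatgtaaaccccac
Cad, chr5:31054530-31054829, plus strand: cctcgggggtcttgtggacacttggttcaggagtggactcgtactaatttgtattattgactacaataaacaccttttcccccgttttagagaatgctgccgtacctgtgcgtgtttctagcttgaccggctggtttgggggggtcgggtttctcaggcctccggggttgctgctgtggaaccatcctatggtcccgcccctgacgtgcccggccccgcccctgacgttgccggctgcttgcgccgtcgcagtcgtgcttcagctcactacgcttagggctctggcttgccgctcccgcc
The motif began 148 bases before the start of Dtymk, 18 bases before the upstream and 29 bases before the downstream start of Nme1. The largest differences among the 9 genes, those of Uck2, Dctpp1, Umps and Cad, were in genes whose windows do not hold these letters, which says nothing of binding outside the windows. No binding data were used here.

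**Figure D3:**
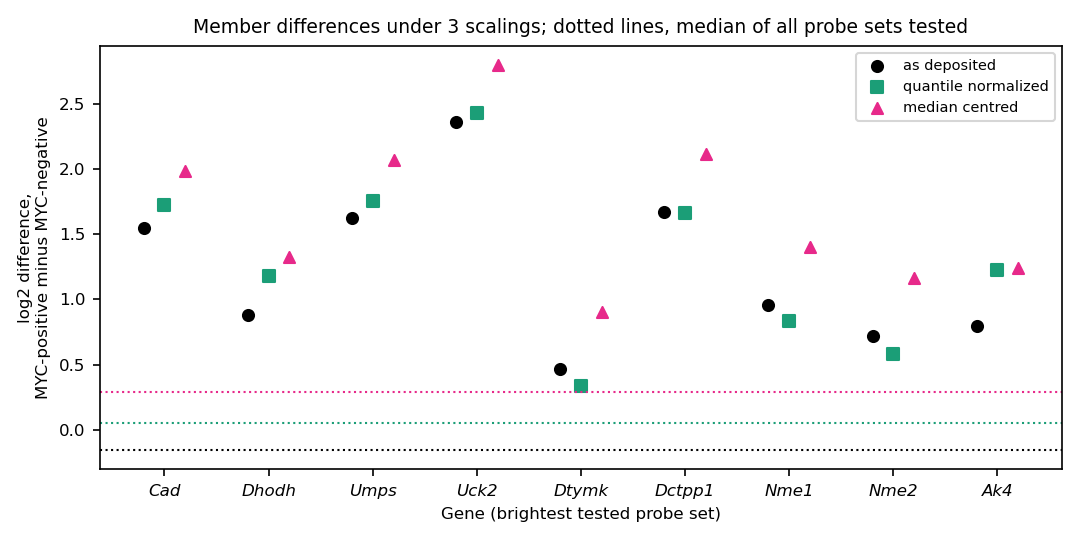
Log2 difference of the brightest tested probe set of each of the 9 genes (y axis, MYC-positive minus MYC-negative) with signals as deposited, quantile normalized and median centred, with dotted lines at the median of all probe sets tested under each. All 9 genes lie above all 3 medians of -0.15, 0.05 and 0.29, from 0.33 for Dtymk after quantile normalization to 2.80 for Uck2 after median centring.

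The split of all calls depended on how arrays were scaled, while no member probe set was called lower under any of the 3 scalings. Quantile normalization raised the median difference of all probe sets tested by 0.20 and median centring by 0.44. The share of all calls that were higher was 42.9% for deposited signals, 55.3% with quantile normalization and 80.7% with median centring. Of the member probe sets 14, 16 and 18 were called higher with deposited signals, quantile normalization and median centring.

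Other genes of the same pathways were called in both directions. A list of 55 further gene symbols of pyrimidine, deoxynucleotide and nucleotide kinase metabolism held 47 with a probe set of their own, of which 41 were tested by their brightest probe set. It holds the same gene under both of its names, Ctps1 and Ctps, and the array carries it as Ctps. Of these 10 were higher and 6 lower, where 11.0% and 10.9% of all 11754 genes so tested were, and 14 and 8 passed an unadjusted p under 0.05. The list's median difference was 0.09, against -0.06 for all genes. Without pair 1 the counts were 5 and 0, without pair 2 they were 6 and 1, and after median centring 16 and 1.

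The isozyme genes of the step from UTP to CTP were called in opposite directions. Ctps, which encodes the CTP synthase that makes CTP from UTP, had 8247, 9825, 9143 and 9687 in MYC-positive arrays, against 3384, 4715, 2927 and 4464 in MYC-negative arrays. It was higher by 1.28 (SE 0.14, limma adjusted p = 0.00135), with no overlap. Ctps2, the gene of the other CTP synthase, had 689, 506, 362 and 544 in MYC-positive arrays, against 1033, 1146, 1001 and 814 in MYC-negative arrays, and fell by 0.95 (SE 0.23, adjusted p = 0.021). Its other 2 probe sets were called lower as well, at -1.51 and -2.08, but were dim. Their geometric mean signals were 36.8 and 17.4 in MYC-positive arrays, against 105 and 73.5 in MYC-negative arrays. The MYC-positive mean of 17.4 lies under the filter level, so the size of that difference is uncertain. The call of the brightest ended after median centring (adjusted p = 0.135) and without pair 1, 2 or 3.
Of the genes that supply phosphoribosyl pyrophosphate, the sugar that UMPS joins to orotate, Prps1 was higher by 0.90 (SE 0.20, adjusted p = 0.0153) and Prps2 was lower, at -0.99 (SE 0.25, adjusted p = 0.0239). Prps1 lost its call without the pair block (0.059), without pair 1 (0.0949) or without pair 2 (0.0728), and Prps2 without pair 1 (0.105) or pair 2 (0.0566) and after median centring (0.12).

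Among 7 tested salvage genes, Dctd was higher, Uckl1 was lower and 5 did not pass. Dctd encodes dCMP deaminase, which makes dUMP for thymidylate synthesis. It had signals of 130, 180, 149 and 199 in MYC-positive arrays, against 15.3, 30.1, 30.4 and 33.6 in MYC-negative arrays, and its difference of 2.63 (SE 0.36, adjusted p = 0.00306) was above that of Uck2. The MYC-negative signals were close to the filter level, and with an offset of 16 the difference was 2.06. Uckl1, a relative of Uck2, was at -0.97 (SE 0.23, adjusted p = 0.0199), a call that ended after median centring (0.11) and without pair 1, 2 or 3. Tk1, the cytosolic thymidine kinase gene, was at 0.49 (SE 0.19, adjusted p = 0.0974) and passed after median centring. Dck, which encodes deoxycytidine kinase, was at -0.34 (SE 0.14, adjusted p = 0.117) by its brightest probe set, at -0.48 and called lower with quantile normalization (adjusted p = 0.00723) and at 0.10 after median centring (0.701), while its other 2 were called lower at -0.93 and -1.16 (adjusted p = 0.00559 and 0.00204).

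Among genes that make the DNA precursors, Dut was higher, Rrm2b was lower, and Tyms, Rrm1 and Rrm2 did not pass. Dut, which encodes the enzyme that clears dUTP, was higher by its brightest probe set, at 0.54 (SE 0.14, adjusted p = 0.0262). This call was lost without pair 1 (0.145) or pair 2 (0.0631) and with quantile normalization (0.0586). The other Dut probe set was at 0.48 (SE 0.19, adjusted p = 0.109) and did not pass. Tyms, the thymidylate synthase gene, was at 0.92 (SE 0.35, adjusted p = 0.0944) by its brightest probe set and at -0.37 and -0.26 by the others, none of which passed. The brightest passed with quantile normalization (1.32, adjusted p = 0.0211), after median centring (1.36, 0.0158) and without pair 4 (1.11, 0.0292). The ribonucleotide reductase genes Rrm1 and Rrm2 were at 0.44 (SE 0.18, adjusted p = 0.11) and 0.16 (SE 0.13, adjusted p = 0.42) by their brightest probe sets. Neither passed, although both did after median centring, at 0.88 and 0.60. Their other probe sets did not pass either, at 0.21 and -0.20 for Rrm1 and at 0.49 and 0.14 for Rrm2. Rrm2b, the gene of the reductase subunit known as induced by p53, had 4762, 4877, 5869 and 5676 in MYC-positive arrays, against 7359, 7320, 7932 and 11418 in MYC-negative arrays. It was lower by its brightest probe set, at -0.66 (SE 0.13, adjusted p = 0.0114), and by its other 3, at -1.36 to -1.52. The call of the brightest ended after median centring, where it was at -0.22 (0.368), and without pair 1 or 2.

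Of 9 other kinase genes tested, 3 were higher and 1 lower. Nme4, which encodes a mitochondrial nucleoside diphosphate kinase, had 275, 294, 161 and 441 in MYC-positive arrays, against 59.0, 72.8, 58.0 and 80.7 in MYC-negative arrays, and was higher by 2.04 (SE 0.32, adjusted p = 0.00468). Guk1, the guanylate kinase gene, was higher by 1.68 (SE 0.25, adjusted p = 0.00389) and Nme6, named after its value was seen, by 1.11 (SE 0.18, adjusted p = 0.00523). Cmpk2 encodes a mitochondrial UMP-CMP kinase known as induced by interferon. It was lower by its brightest probe set, at -1.53 (SE 0.36, adjusted p = 0.021), and lost this call without pair 1 (0.114). Its other probe set was near the filter level, with geometric means of 19.2 in MYC-positive and 20.4 in MYC-negative arrays. That probe set was at -0.09 (SE 0.49, adjusted p = 0.918) and did not pass. Cmpk1, the gene of the kinase that phosphorylates UMP in the cytosol, was bright and at -0.08 by its brightest probe set (SE 0.14, 95% interval -0.41 to 0.24, adjusted p = 0.714). The sign of that probe set turned after median centring, at 0.36 (adjusted p = 0.205). The other Cmpk1 probe set was dimmer, with geometric means of 84.9 in MYC-positive and 204 in MYC-negative arrays. That one was at -1.26 (SE 0.41, adjusted p = 0.0611) and did not pass, although the groups did not overlap. Nme7, Ak1, Ak3 and Ak7 lay between -0.28 and 0.27 by their brightest probe sets and did not pass. The other Nme7 probe set was dim, with geometric means of 15.8 in MYC-positive and 48.5 in MYC-negative arrays. It was at -1.62 (SE 0.69, adjusted p = 0.127) and did not pass.

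Of 3 tested genes that clean the nucleotide pool, as Dctpp1 does, Nudt1 was higher and Samhd1 lower. Nudt1, which encodes a hydrolase of oxidised purine triphosphates, had a difference of 1.32 (SE 0.26, adjusted p = 0.0106; 0.0719 without pair 1). Samhd1 encodes a hydrolase of deoxynucleoside triphosphates and was at -0.68 (SE 0.15, adjusted p = 0.0159). The 4 further Samhd1 probe sets were at -0.72 to -2.43, of which 2 were called. The call of the brightest ended after median centring (0.382) and without pair 1 (0.0828) or pair 2 (0.0949). Of 7 breakdown genes 0 passed in limma, and at an unadjusted p under 0.05 none was higher and 1, Upb1 at -1.85, was lower. Of 4 transport genes, 2 were higher: Slc29a1, the equilibrative nucleoside transporter gene, by 1.47 (SE 0.39, adjusted p = 0.031), and Slc25a33, the gene of a mitochondrial pyrimidine nucleotide carrier, by 1.05 (SE 0.26, adjusted p = 0.0237). Without pair 1 the adjusted p of Slc29a1 and Slc25a33 was 0.0714 and 0.0902, and without pair 2 it was 0.138 and 0.107. Slc25a33 lost its call without pair 3 as well (0.067). With no intensity trend the calls of Ctps2, Prps1, Prps2, Uckl1, Dut, Rrm2b, Nudt1, Samhd1 and Slc29a1 ended, with limma adjusted p between 0.0507 for Uckl1 and 0.135 for Dut.

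**Figure D4:**
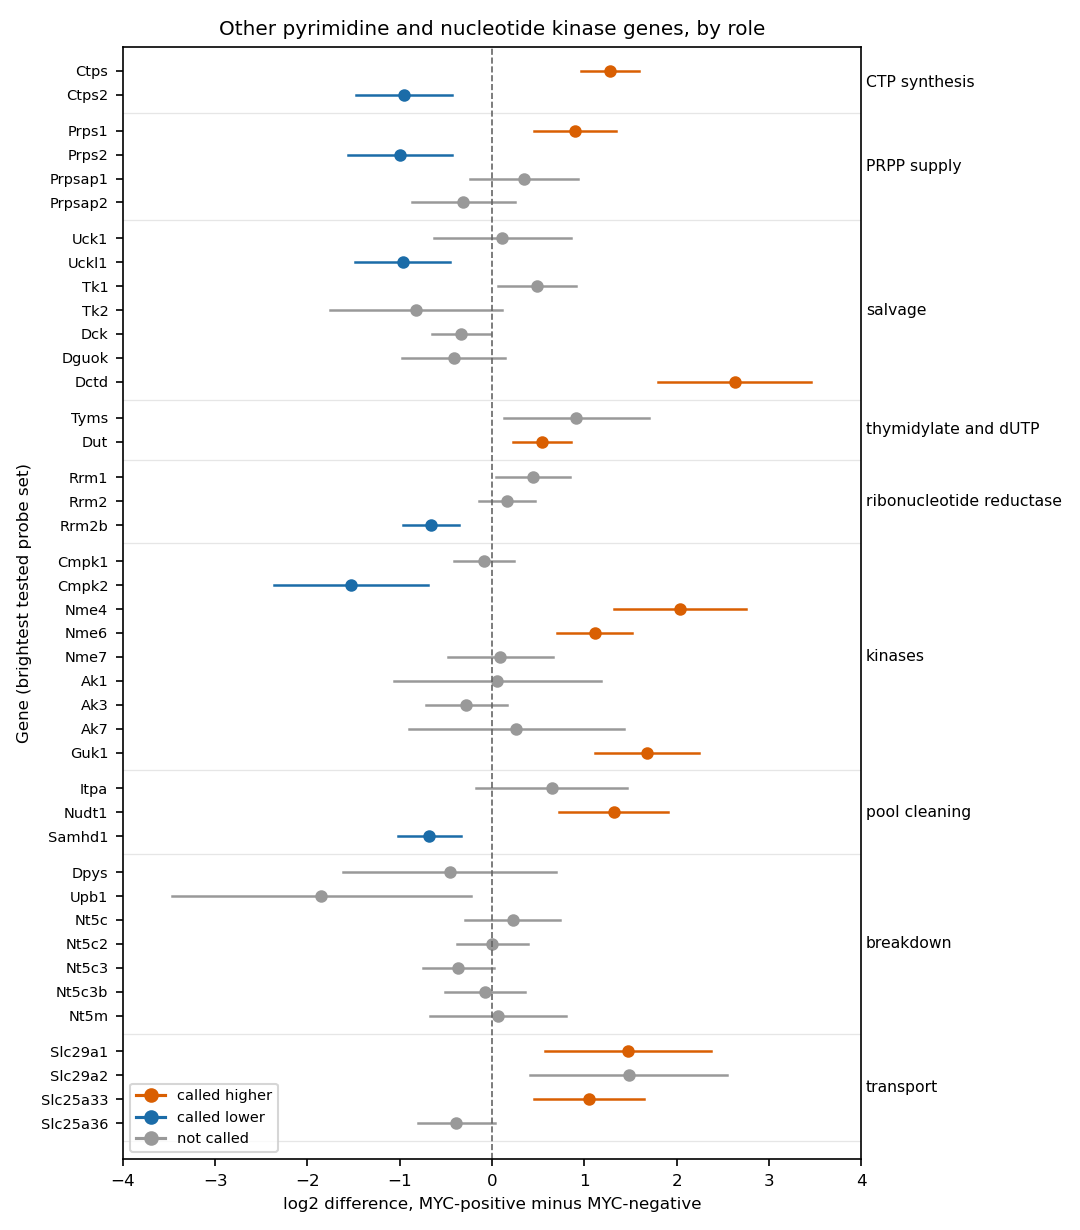
Log2 difference of the brightest tested probe set of 41 other genes of these pathways (x axis, MYC-positive minus MYC-negative), grouped by role, with points at the mean of 4 pairs and bars for the 95% confidence interval from limma. Orange marks the 10 genes called higher, led by Dctd at 2.63 and Nme4 at 2.04, blue the 6 called lower, from Rrm2b at -0.66 to Cmpk2 at -1.53, and grey the 25 not called.

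Among the other members, by brightest probe set, Umps was the gene whose pattern over the 8 arrays was nearest to that of Cad. Likeness was the root mean square difference of log2 signals, each centred on its own mean, over 8 arrays and 11753 other genes by their brightest probe sets. The nearest 5 were Nsun2 (distance 0.125), an RNA cytosine methyltransferase gene, Mybbp1a (0.125), which encodes a nucleolar protein, Prmt5 (0.165), an arginine methyltransferase gene, Abhd14a (0.169) and Mrm3 (0.170), a mitochondrial rRNA methyltransferase gene. Umps ranked 21 with a distance of 0.243, and the other members ranked from 600 for Dhodh to 6843 for Ak4. The distance includes the difference between the groups as well as the spread within them. Umps 1434859_at was not compared. Its MYC-negative array of pair 4 was the brightest of its group, where that of Cad was the dimmest.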

How the data were processed

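Affymetrix mouse expression arrays measured RNA of 4 MYC-positive and 4 MYC-negative samples, amplified from 5 to 20 ng per the labels' protocols. What the authors deposited is 1 linear intensity for each probe set and sample, from MAS5 per the submitters' processing notes, with its version and target intensity not given in the sources read here. Of 45056 probe sets, 19 were controls, 34945 had 1 gene, 932 several and 9160 other probe sets were unnamed here. Looking up gene identifiers in the RefSeq table changed 0 symbols.

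A floor of 1 was applied before log2 transformation. Probe sets with 1 gene and a mean log2 value above the 40th percentile (a signal of 18.7) were tested, 22024 in all. limma 3.58.1 in R 4.3.3 fitted group with the pair as a block (3 residual degrees of freedom, eBayes with intensity trend), 2-sided, with Benjamini-Hochberg adjustment over all of them. The number of arrays limits the precision. Pairs come from the sample descriptions. Deviations of paired arrays from their group means correlated at 0.235, 0.128, 0.0903 and 0.142 for pairs 1 to 4, and no correlation between arrays exceeded 0.973. The fit was checked on simulated arrays.

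Named were all members, Myc, the up to 3 largest called genes of each role with the same sign in 4 pairs, 9 fixed genes, and the 5 nearest to Cad. Other pathway genes (Nme6, Nme7, Ak1, Ak3, Ak7 and Upb1) were named after their values were seen. Members and lists were chosen with earlier results of these data known. The alternatives were no pair block, 2 other scalings, 2 other filters, an offset of 16, no intensity trend, each pair left out, and 1 value per gene as the brightest probe set or the mean. Symbols of the list with no probe set of their own were not analysed here.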

Additional observations from a re-analysis of the deposited data

Results flagged for a closer look

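Of 98 groups of 4 arrays checked among the probe sets named above, 5 held an array whose gap to its nearest neighbour took up most of the range of its group on the log2 scale. Chance alone gives about 1 in 20. The MYC-positive array of pair 1 was the one apart in 3 of them. It was high for Uck2 1457980_x_at, with a signal of 1545 where the next was 930 (gap over range 0.859). It was low for Nme1 1435277_x_at, with 213 where the next was 424 (0.833), and for Ak4 1450387_s_at, with 15.7 where the next was 68.7 (0.949). Its MYC-negative partner was the lowest of its own group for both of these, at 206 and 14.9. The MYC-positive array of pair 1 held the highest myeloid marker sum, 10517, and a link to these values was not tested. The MYC-positive array of pair 3 was high for Dtymk 1452681_at, at 4878 where the next was 3727 (0.847). The MYC-negative array of pair 1 was low for Dctd 1454659_at, at 15.3 where the next was 30.1 (0.860).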

How the results depend on the processing

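No tested member probe set changed the sign of a called difference under any alternative run, nor did Myc, the other pathway genes named by rule or the 5 genes nearest to Cad. Nme6 and the marker genes were not run under the alternatives. The member probe sets called numbered 14, and from 11 with no intensity trend to 18 after median centring under the alternatives that kept all pairs, with 12 when the pair block was dropped, which ended the calls of Dtymk 1438096_a_at and Nme2 and of no other member probe set. When each pair was left out in turn they numbered 9 (without pair 1) to 16 (without pair 4), and the member genes called by their brightest probe set, 8, numbered 5 to 8. The other pathway genes called numbered 16, against 8 with no intensity trend and 5 to 17 when pairs were left out, the fewest without pair 1. All probe sets called numbered 4638, against 2340 with no intensity trend and 884 to 6691 when pairs were left out. Leaving out a pair leaves 2 residual degrees of freedom, so fewer calls there come in part from fewer samples. The excess of the brightest over the dimmest tested Umps probe set, 0.91, lay between 0.66 and 1.06 under the other scalings and the offset. For other lost calls the cause was not tested. The fits with 1 value per gene count genes, not probe sets, and gave 8 member genes with the brightest probe set and 7 with the mean. Signals of Ak4, Uck2 1417137_at and MYC-negative Dctd lay near the filter level.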

Other observations

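Several enzymes of these pathways are encoded by related genes whose log2 differences lay apart within the same arrays, and these comparisons were chosen after the values were seen. At the brightest probe set of each gene, used for every comparison here, Uck2 exceeded Uckl1 in its log2 difference by 3.33 ± 0.24 (SD, n = 4 pairs). Ctps exceeded Ctps2 by 2.23 ± 0.63 and Prps1 exceeded Prps2 by 1.89 ± 0.24. Rrm2 exceeded Rrm2b by 0.83 ± 0.13 and Cmpk1 exceeded Cmpk2 by 1.44 ± 0.71. Each had the same direction in 4 of 4 pairs, which gives an exact sign-flip p = 0.125, the smallest that 4 pairs allow. The direction for Cmpk1 and Cmpk2 depends on the probe set. Their dimmer tested probe sets lay the other way, at -1.26 for Cmpk1 and -0.09 for Cmpk2. Since the couples were picked for lying apart, these values are a description.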
